A study of Mus musculus with 6 samples.

Results

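The genes of the phagocyte NADPH oxidase were followed in cultured mouse bone-marrow-derived macrophages, 6 genes among the 38124 of the deposited table. They were chosen by name, as parts of the NOX2 complex and its proton channel. Cybb and Cyba encode the membrane subunits, Ncf1 and Ncf4 encode cytosolic subunits, Rac2 encodes the GTPase and Hvcn1 encodes the voltage-gated proton channel that works beside the complex. All 6 were found in the table and all 6 passed the filter on low values, as did 10173 genes in all.

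Macrophages were grown from the marrow of wild-type C57BL mice, and polyadenylated RNA was sequenced from 2 groups of 3 libraries. One group was left untreated, and the other, called treated here, was kept for 24 hr with thymocytes made apoptotic with dexamethasone, a synthetic glucocorticoid. The ratio was given as 1:40, and the apoptotic cells were removed before the RNA was taken. Samples were described as biological replicates, and the age and sex of the mice were not given. Groups given living thymocytes or dexamethasone alone were not analysed here, so effects of uptake, of the thymocytes' contents and of carried-over drug cannot be told apart.

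The phagocyte oxidase moves electrons from NADPH in the cytosol across a membrane to oxygen, which makes superoxide in the phagosome or outside the cell. In resting cells the gp91phox and p22phox proteins sit together in the membrane as cytochrome b, while p47phox and p40phox wait in the cytosol. After stimulation p47phox is phosphorylated, the cytosolic proteins move to the membrane, and a Rac protein loaded with GTP joins them. Because electrons leave the cytosol, a proton channel is needed to balance the charge. Macrophages use the oxidase against microbes and in the handling of engulfed material, and loss of its subunits causes chronic granulomatous disease.

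Depth was 19315132 to 25933208 mapped reads per library, recovered from the step size of the deposited values. The values are RPKM, reads on a gene divided by its length and by the mapped reads of its library. Between 1435 and 20907 reads stood behind each value of the 6 genes, so the counting error of a single value was at most 2.64% of it. The treated libraries varied more among themselves than the untreated ones for all 6 genes, with a coefficient of variation of 3.98% to 8.36% against 1.19% to 3.93%. Such a wider spread was seen in 70.7% of all tested genes.

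Macrophage identity was checked with 10 marker genes, all of which were tested. The treated libraries were higher for 2 of them and lower for 7, with 1 not passed, where 18.8% of all tested genes were higher and 46.0% lower. Rescaled by the median of ratios, as described below, the counts were 3, 5 and 2, beside 30.2% higher and 29.8% lower of all. Lyz2 (lysozyme) stood at 13388 ± 408 RPKM in untreated and 19418 ± 1128 in treated libraries, Cd68 at 1274 ± 26.9 and 1144 ± 35, and Csf1r at 536 ± 15.8 and 359 ± 17.4 (mean ± SD, n = 3). Other markers of the list differed more, and are named after their values were seen. Fcgr1, a high-affinity antibody receptor, was at 52.7 ± 2.54 RPKM in untreated and 7.43 ± 0.401 in treated libraries, and Itgam, the integrin chain CD11b, at 119 ± 1.74 RPKM in untreated and 33.1 ± 0.695 in treated libraries. Mertk, a receptor for apoptotic cells, was at 21.9 ± 0.415 RPKM in untreated and 94.98 ± 4.21 in treated libraries. The log2 changes of Cd14 and Aif1 were -1.97 and -1.58. Of 16 thymocyte genes, 15 stayed under 1 RPKM in every library and 5 were at 0 throughout (Cd3e, Cd8b1, Rag2, Ptcra and Themis). Their summed level was 4.37 to 4.83 RPKM in untreated and 2.25 to 2.69 in treated libraries, nearly all of it Cd4, at a mean of 4.32 and 2.14. The defining T cell genes were thus at or near 0 in both groups.

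Markers of neutrophils, which carry the same oxidase at high level, moved with the treatment. Their summed level was 6.42 to 7.08 RPKM in untreated and 40.0 to 43.1 in treated libraries. It came mainly from S100a8, which went from 5.86 ± 0.291 to 26.3 ± 1.30, S100a9, which went from 0.726 ± 0.0647 to 11.5 ± 0.823, and the granule gene Ngp, which went from 0.181 ± 0.111 to 2.81 ± 0.122. S100a8 passed as higher (limma adjusted p = 4.35e-09). S100a9 and Ngp were under 1 RPKM in every untreated library and passed the filter only through the treated group, so their direction was fixed by the filter. The other 7 of the 10 markers were under 1 RPKM in every library, and Ly6g was at 0 in all 6. At these low levels Camp went from 0.0240 ± 0.0416 to 0.758 ± 0.0958 and Ltf from 0.0408 ± 0.0312 to 0.330 ± 0.0760. Elane, Cxcr2 and Retnlg were at 0 in every untreated library and had 1 to 5 reads in each treated one. Mpo overlapped between groups. Summed erythroid markers were at 0 to 0.106 RPKM in untreated and 0.998 to 1.54 in treated libraries, B cell markers at 0.434 to 0.596 and 0.136 to 0.195, and dendritic cell markers at 0.155 to 0.198 and 0.0625 to 0.208. Their part in the results was not tested. In bulk RNA, fewer cells of a type and less RNA per cell cannot be told apart.

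The members did not move together. Cyba and Ncf1 rose, Cybb, Ncf4 and Rac2 fell, and Hvcn1 did not pass the test (limma on log2(RPKM + 1), adjusted p under 0.05). This makes 5 of 6 genes called, where 64.8% of all tested genes were called, 18.8% as higher and 46.0% as lower. The groups did not overlap for the same 5 genes, 2 with treated higher and 3 with treated lower, where 69.6% of all tested genes did not overlap, 20.4% with treated higher and 49.1% with treated lower. The number of members called therefore lies near the background, and the results concern which subunit went which way and by how much. RPKM assumes that the mapped reads of a library are a fair yardstick, so the libraries were also rescaled by the median of ratios to the average library and by the upper quartile. The median log2 change of all tested genes, -0.13 as deposited, was then near 0. With the first rescaling 30.2% of tested genes were higher and 29.8% lower, and with the second 32.3% and 27.7%. Cyba, Ncf1 and Hvcn1 were higher and Cybb and Ncf4 lower under both, while Rac2 did not pass.

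Promoter sequences are shown for the 3 members found in the RefSeq table (GRCm38.p6), because they set Cybb, which fell, beside Cyba and Ncf1, which rose. Each run covers 250 bases before and 50 bases after the transcription start annotated there, printed 5′ to 3′ on the gene's own strand. The Cybb window lies inside the gene span given below, whose minus-strand start is at 9487771. The annotations thus differ in the start of Cybb, and its positions count from the RefSeq start. Capitals mark matches to the interferon response element (GAAA, any 2 bases, GAAA), the CCAAT box CCAAT and the PU.1 core GAGGAA, on either strand.
Cybb (chrX:9469275-9469574, minus strand): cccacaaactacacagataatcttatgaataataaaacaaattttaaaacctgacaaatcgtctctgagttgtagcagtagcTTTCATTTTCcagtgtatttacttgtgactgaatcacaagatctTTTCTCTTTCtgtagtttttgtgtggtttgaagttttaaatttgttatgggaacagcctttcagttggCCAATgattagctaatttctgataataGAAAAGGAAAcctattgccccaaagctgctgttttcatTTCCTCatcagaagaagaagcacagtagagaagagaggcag
Ncf1 (chr5:134229576-134229875, minus strand): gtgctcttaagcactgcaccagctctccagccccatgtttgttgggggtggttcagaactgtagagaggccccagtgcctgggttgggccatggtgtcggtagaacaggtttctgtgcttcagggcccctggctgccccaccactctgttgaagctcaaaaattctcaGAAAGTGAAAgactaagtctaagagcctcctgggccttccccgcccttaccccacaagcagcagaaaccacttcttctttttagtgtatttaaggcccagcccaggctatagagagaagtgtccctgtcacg
Cyba (chr8:122432891-122433190, minus strand): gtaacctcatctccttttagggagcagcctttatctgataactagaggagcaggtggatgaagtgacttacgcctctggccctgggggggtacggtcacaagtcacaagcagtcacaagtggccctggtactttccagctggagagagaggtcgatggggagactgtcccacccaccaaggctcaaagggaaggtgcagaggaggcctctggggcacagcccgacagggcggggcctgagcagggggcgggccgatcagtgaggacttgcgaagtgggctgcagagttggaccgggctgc

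The Cybb window held 3 matches to the interferon response element, whose first printed bases lay 168, 124 and 29 bases before the start, besides a CCAAT box 56 bases before it and a PU.1 core just after it. The Ncf1 window held a single interferon response element 82 bases before the start, in the form GAAAGTGAAA. The Cyba window held none of the 3 motifs, and its GC content was 60.7%, against 54.0% for Ncf1 and 35.3% for Cybb. Among all 32851 promoter windows of this length, 3.44% held the interferon response element, 37.4% the CCAAT box and 28.3% the PU.1 core. The antioxidant response element TGACNNNGC, found in 12.4% of all windows, was in none of the 3. The glucocorticoid receptor core motif AGAACA, found in 19.0%, was in Ncf1 only among them, 149 bases before the start. A match describes letters in the window and not binding. Ncf1, which rose, and Cybb, which fell, thus both held the interferon response element, while Cyba, which rose, did not. Any part of these motifs in the changes was not tested.

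Cybb encodes gp91phox, the catalytic subunit that carries the heme and flavin groups (ENSMUSG00000015340, mm10 chromosome X, 9435252 to 9487771, minus strand). Its level was 153, 151 and 156 RPKM in untreated and 101, 102 and 91.2 in treated libraries. Every treated library lay below every untreated one. Mean RPKM fell from 153 ± 2.58 to 98.1 ± 6.03, a 1.56-fold difference, and the log2 change was -0.64 with an SE of 0.0517 (limma adjusted p = 5.62e-06).

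Cyba encodes p22phox, the partner that stabilises gp91phox in the membrane and docks p47phox (ENSMUSG00000006519, chromosome 8, 122424772 to 122432940, minus strand). Its level was 662, 697 and 646 RPKM in untreated and 747, 820 and 884 in treated libraries. The groups did not overlap, and the change was opposite to that of Cybb. Mean RPKM rose from 668 ± 26.2 to 817 ± 68.3, a 1.22-fold difference, and the log2 change was 0.29 with an SE of 0.0673 (limma adjusted p = 0.00494). Cyba had the highest RPKM of the 6 genes, 54th of 10173 tested genes in untreated and 43rd in treated libraries. The predicted gene Gm20388 spans Cyba on the other strand at a mean of 17.4 RPKM in untreated and 12.9 in treated libraries, and whether strand was used in counting is not given in the sources used here.

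Ncf1 encodes p47phox, the organiser that is phosphorylated on activation (ENSMUSG00000015950, chromosome 5, 134220053 to 134229625, minus strand). Its level was 103, 109 and 106 RPKM in untreated and 124, 127 and 134 in treated libraries. Every treated library was above every untreated one. Mean RPKM rose from 106 ± 3.03 to 128 ± 5.11, a 1.21-fold difference, and the log2 change was 0.27 with an SE of 0.0460 (limma adjusted p = 0.000758). The end of Ncf1 overlaps Gtf2ird2, a gene on the other strand at 1.67 and 1.23 RPKM.

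Ncf4 encodes p40phox, which binds phosphatidylinositol 3-phosphate on the phagosome and holds the oxidase there (ENSMUSG00000071715, chromosome 15, 78244801 to 78262580, plus strand). Its level was 74.4, 78.5 and 73.9 RPKM in untreated and 28.1, 31.2 and 31.9 in treated libraries. No treated library came near the untreated range, and the change was the largest in size among the 6 genes. Mean RPKM fell from 75.6 ± 2.52 to 30.4 ± 2.02, a 2.49-fold difference, and the log2 change was -1.29 with an SE of 0.0553 (limma adjusted p = 7.11e-08). Counted from the most negative change, Ncf4 stood at place 338 of 10173 tested genes and Cybb at place 1154.

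Rac2 encodes the Rac GTPase of blood cells (ENSMUSG00000033220, chromosome 15, 78559169 to 78572783, minus strand). Its level was 57.8, 58.2 and 59.2 RPKM in untreated and 51.7, 53.7 and 56.0 in treated libraries. The groups did not overlap, but by less than the spread among treated libraries. The mean went from 58.4 ± 0.694 to 53.8 ± 2.18 (log2 change -0.12, SE 0.0436, adjusted p = 0.0413, limma). The median change of all tested genes was of like size, -0.13, and with median-of-ratios scaling Rac2 turned to 0.030 (adjusted p = 0.588). The call was also lost when any library other than treated replicate 3 was left out, with adjusted p-values of 0.0916 to 0.143.

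Hvcn1 encodes the voltage-gated proton channel (ENSMUSG00000064267, chromosome 5, 122206804 to 122242297, plus strand). Its level was 50.8, 50.2 and 51.8 RPKM in untreated and 51.5, 53.6 and 57.6 in treated libraries. The groups overlapped, with treated replicate 1 inside the untreated range. The mean was 50.9 ± 0.767 and 54.2 ± 3.11 (log2 change 0.087, 95% interval -0.024 to 0.20, adjusted p = 0.146, limma). Hvcn1 was called higher with median-of-ratios scaling, at a log2 change of 0.23 (adjusted p = 0.00346). Leaving out treated replicate 1 also made it pass, at 0.12 (adjusted p = 0.0396). The end of the gene overlaps Tctn1 on the other strand, which was at 1.18 and 0.879 RPKM.

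**Figure D1:**
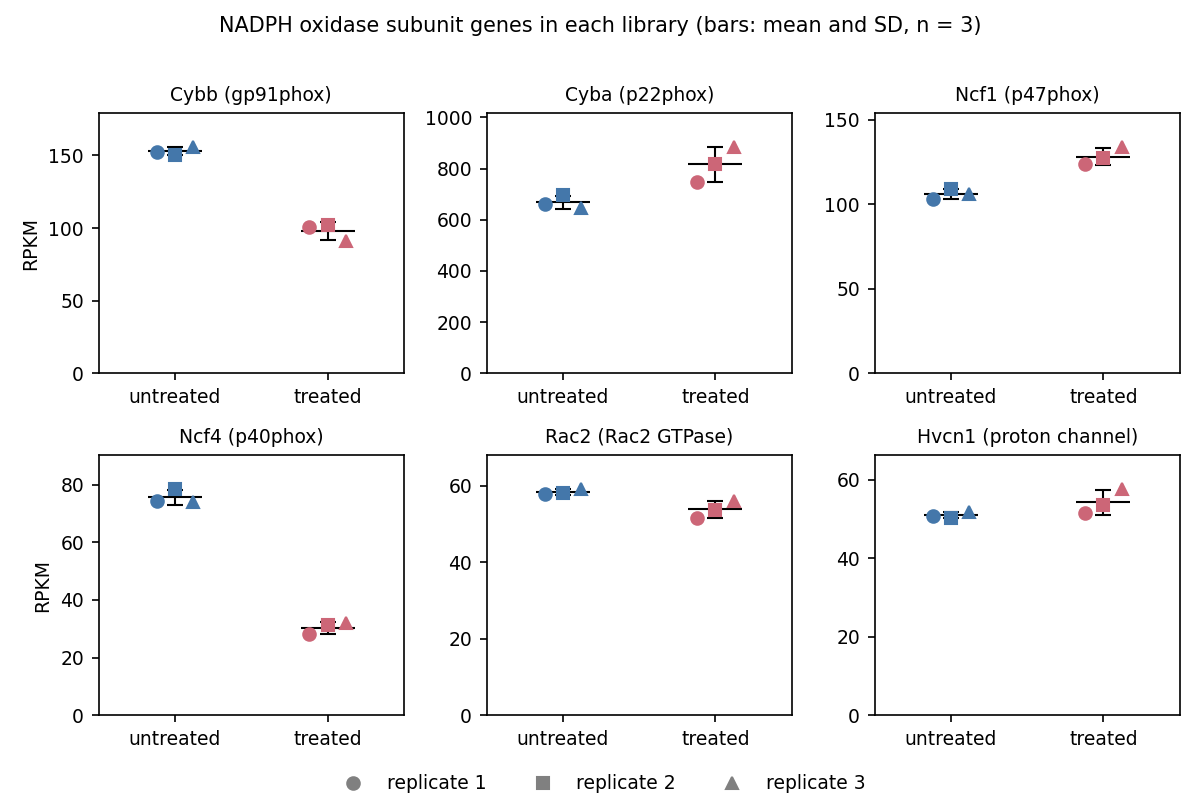
RPKM of the 6 oxidase genes in each library, untreated in blue and treated in red, with symbols for the replicate number and bars for the mean and SD (n = 3, each axis starting at 0). Cybb and Ncf4 lie lower and Cyba and Ncf1 higher in all 3 treated libraries, while the 2 groups are close for Rac2 and overlap for Hvcn1.

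Within the treated group the libraries kept the same order of highest and lowest for all members but Cybb. Treated replicate 3 had the highest value in 5 of the 6 genes and treated replicate 1 the lowest in the same number, while for Cybb treated replicate 3 was the lowest. The changes of Cybb, Cyba, Ncf1 and Ncf4 passed without any 1 of the 6 libraries. Their log2 changes then ranged from -0.67 to -0.59 for Cybb, 0.23 to 0.35 for Cyba, 0.24 to 0.30 for Ncf1 and -1.32 to -1.24 for Ncf4.

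RPKM divides reads by gene length, so a comparison of levels between genes rests on the lengths used. These ran from 758 bases for Cyba to 5808 for Cybb. The order of the members by RPKM changed with treatment. In untreated libraries it ran Cyba, Cybb, Ncf1, Ncf4, Rac2 and Hvcn1, and no neighbouring ranges overlapped. In treated libraries it ran Cyba, Ncf1, Cybb, Hvcn1, Rac2 and Ncf4. Only Hvcn1 and Rac2 overlapped there, at 51.5 to 57.6 and 51.7 to 56.0 RPKM, and Ncf4 had moved to the last place.

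Ratios of members within a library do not depend on how libraries are scaled, and for most pairs they did not overlap between groups. The size of a ratio, and so the side of 1 on which it lies, rests on the gene lengths used. Its change between groups does not. The ratio of Cyba to Cybb, the 2 subunits of the membrane cytochrome, was 4.33, 4.63 and 4.15 in untreated and 7.41, 8.01 and 9.69 in treated libraries. The mean ratio went from 4.37 ± 0.243 to 8.37 ± 1.18, and the lowest treated value was above the highest untreated one. The ratio of Ncf1 to Ncf4, both cytosolic, was 1.39, 1.39 and 1.43 in untreated and 4.41, 4.09 and 4.20 in treated libraries. Its mean went from 1.40 ± 0.0259 to 4.23 ± 0.164. The ratio of Cybb to Ncf1 turned from above 1 to below 1, from 1.44 ± 0.0558 to 0.766 ± 0.0739. The ratio of Ncf4 to Rac2 did likewise, from 1.30 ± 0.050 to 0.564 ± 0.0191.

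The exception was Cyba with Ncf1, whose ratio differed by less than the spread between libraries. It was 6.41, 6.38 and 6.10 in untreated and 6.04, 6.43 and 6.60 in treated libraries, with means of 6.30 ± 0.173 and 6.36 ± 0.290 and a log2 difference of 0.013 (exact permutation test, two-sided, p = 0.8). Of the 15 pairs, the other 14 had ratios that did not overlap between groups, each with an exact permutation p = 0.1, the smallest that 3 against 3 libraries allow, and an adjusted p of 0.107 over the 15 pairs. With 3 libraries a group this test cannot reach 0.05. Among all pairs of tested genes above 0 in every library, 70.2% had ratios that did not overlap between groups, and since each member enters 5 pairs, the 15 ratios are not independent.

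**Figure D2:**
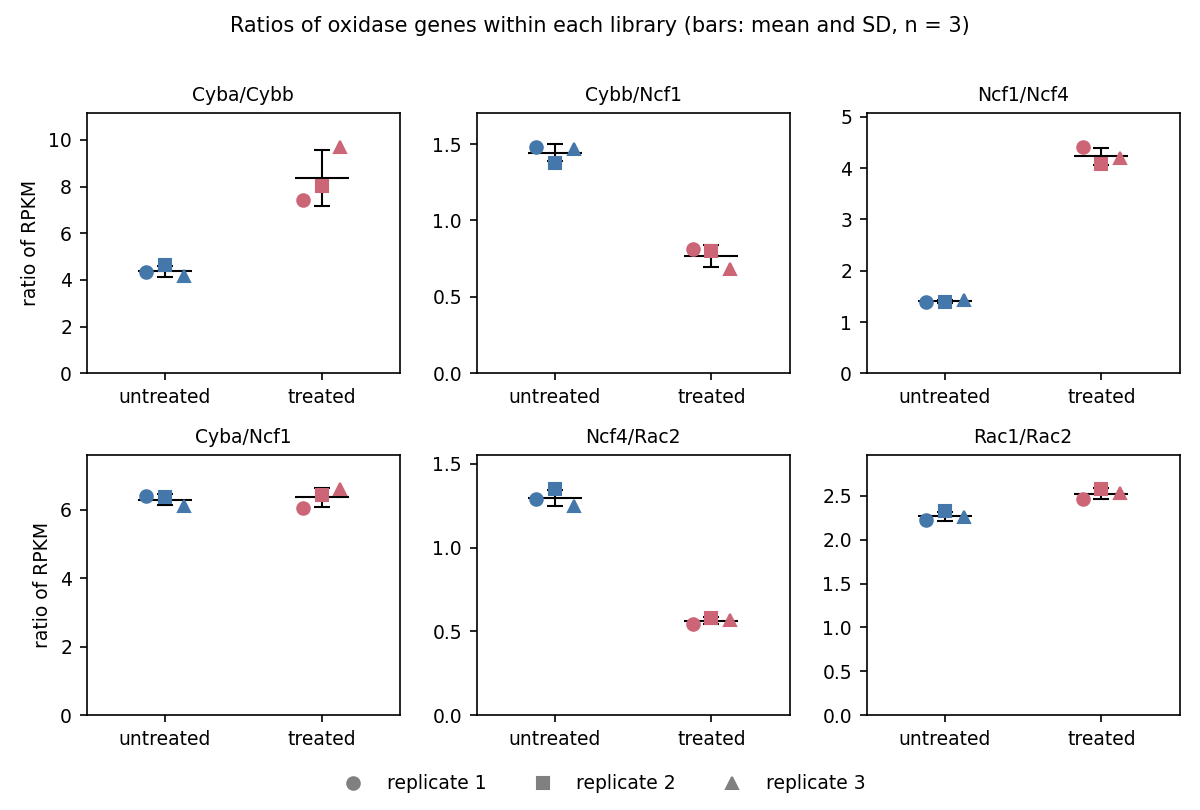
Ratio of RPKM within each library for 5 pairs of members and for Rac1 with Rac2, with symbols for the replicate number and bars for the mean and SD (n = 3, each axis starting at 0). Cyba/Cybb and Ncf1/Ncf4 are higher and Cybb/Ncf1 and Ncf4/Rac2 are lower in all treated libraries, while Cyba/Ncf1 overlaps between groups.

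Partner genes that work with the complex are described one at a time. Rac1 encodes the widely expressed Rac GTPase, a close paralog of Rac2, and how reads matching both genes were treated is not given in the sources used here. It was at 132 ± 3.37 and 136 ± 7.80 RPKM (log2 change 0.036, 95% interval -0.081 to 0.15, adjusted p = 0.560, limma). Its RPKM ratio to Rac2 was 2.23, 2.32 and 2.25 in untreated and 2.46, 2.58 and 2.54 in treated libraries. Reads were closer, at 3297, 4290 and 4076 for Rac1 and 3389, 4226 and 4143 for Rac2 in untreated libraries. In treated libraries they were 4373, 4180 and 4440 against 4070, 3715 and 4007. The size of the ratio thus rests on the gene lengths used, and does not rank the 2 transcripts by itself. With median-of-ratios scaling Rac1 passed as higher (log2 change 0.18, adjusted p = 0.0132).

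Cybc1 (listed as BC017643), a chaperone that the gp91phox and p22phox pair needs, fell from 17.4 ± 0.748 to 13.8 ± 0.268 RPKM (log2 change -0.32, adjusted p = 0.000327, limma). Nrros (listed as Lrrc33), whose product limits gp91phox, fell from 54.9 ± 0.728 to 40.7 ± 2.38 (log2 change -0.42, adjusted p = 6.99e-05). Rap1a, a small GTPase found with the membrane cytochrome, fell from 43.9 ± 2.59 to 30.9 ± 4.64 (log2 change -0.50, adjusted p = 0.00189). The 3 falls passed under both rescalings, the closest being Cybc1 with upper-quartile scaling (adjusted p = 0.0211). Of the 4 partners 3 were thus lower, where 46.0% of all tested genes were lower, and 29.8% with median-of-ratios scaling. The lower ones include both a required chaperone and a negative regulator of the same protein. A link to the fall of Cybb was not tested.

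**Figure D3:**
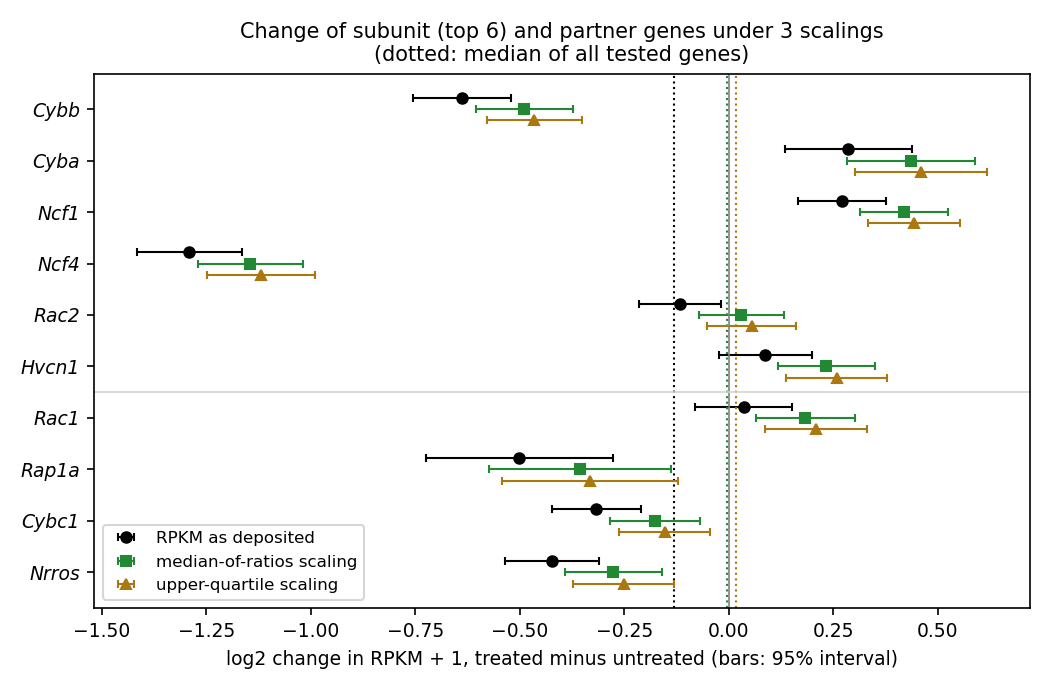
Log2 change in RPKM + 1 with its 95% interval for the 6 members (above the grey line) and 4 partner genes, with the values as deposited, with median-of-ratios scaling and with upper-quartile scaling. Dotted lines give the median of all tested genes, -0.13 as deposited. The intervals of Cybb, Ncf4, Cyba and Ncf1 stay on 1 side of 0 under all 3, while the interval of Rac2 reaches both sides with the 2 rescalings and those of Hvcn1 and Rac1 do so only as deposited.

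Other enzymes of the family were nearly silent. All 9 genes of the list of other NADPH oxidases and their partners stayed under 1 RPKM in every library, and Duox1, Duox2, Duoxa1, Duoxa2 and Noxa1 were at 0 in all 6. Noxo1, the organiser paired with Nox1, had the highest level with 0.751 ± 0.0715 RPKM in untreated and 0.409 ± 0.128 in treated libraries. The summed level was 0.811 to 1.02 RPKM in untreated and 0.300 to 0.549 in treated libraries, so Cybb was the only catalytic subunit of the family above 1 RPKM.

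Exchange factors and activators that load Rac with GTP were mostly lower in treated libraries. Tiam1, under 1 RPKM in every treated library, passed the filter only through the untreated group, so its direction was fixed by the filter. The other 8 tested genes fell, where 46.0% of all tested genes were called lower, and their median log2 change was -0.45 against -0.13 for all tested genes. Dock2, the main Rac exchange factor of leukocytes, fell from 30.2 ± 0.285 to 17.3 ± 0.0406 RPKM (log2 change -0.77, adjusted p = 1.96e-07, limma). Tiam1 went from 2.17 ± 0.0766 to 0.469 ± 0.0360, and Dock5 fell from 6.26 ± 0.189 to 3.28 ± 0.0521. With median-of-ratios scaling 7 of the 8 were still called, where 29.8% of all tested genes were lower. Elmo1 was the exception (log2 change -0.085, adjusted p = 0.137). The tenth gene, Tiam2, was too low to be tested.

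Of 6 tested genes that restrain Rac and its relatives, 2 were higher, 2 lower and 2 not passed, where 18.8% of all tested genes were higher and 46.0% lower. Their median log2 change was -0.072. Arhgap25, a phagocyte GTPase-activating protein for Rac, fell from 34.9 ± 0.0513 to 15.1 ± 0.441 RPKM (log2 change -1.15, adjusted p = 2.24e-08, limma). Arhgdib, which holds Rac and related GTPases in the cytosol, rose from 156 ± 2.38 to 221 ± 11.5 (log2 change 0.50, adjusted p = 1.88e-05). Racgap1, a GTPase-activating protein of cell division, fell from 2.15 ± 0.147 to 1.10 ± 0.109.

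Of 12 tested kinases and phospholipases that act on the complex, 4 were higher, 6 lower and 2 not passed. Prkcd, named after its values were seen, was among the higher ones by a small margin (log2 change 0.11, adjusted p = 0.0399, limma). Its call was lost with no intensity trend (adjusted p = 0.0635) and with the replicate block (adjusted p = 0.0507). The call of Prkcd was also lost when any library other than treated replicate 3 was left out, with adjusted p-values of 0.0639 to 0.137. The share that was lower and the median of -0.16 lie near those of all tested genes, 46.0% and -0.13, while 18.8% of all were higher. Pak1, a kinase that Rac activates and that phosphorylates p47phox, fell from 20.4 ± 0.679 to 8.96 ± 0.431 RPKM (log2 change -1.11, adjusted p = 9.84e-08, limma). Prkcb, a protein kinase C gene acting on p47phox, rose from 10.3 ± 0.202 to 16.3 ± 0.457 (log2 change 0.61, adjusted p = 2.64e-06). Pla2g4a, whose phospholipase releases arachidonic acid, fell from 3.53 ± 0.209 to 1.78 ± 0.0361. With median-of-ratios scaling the counts were 4 higher and 4 lower, beside 30.2% and 29.8% of all tested genes.

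Phosphoinositide supply was covered by 10 genes, of which 2 were higher, 3 lower and 5 not passed, and their median was -0.012. Among all tested genes 18.8% were higher and 46.0% lower, so the number that was higher lies near the background. Pik3cg, the catalytic subunit of PI3K gamma, fell from 13.5 ± 0.145 to 4.91 ± 0.151 RPKM (log2 change -1.30, adjusted p = 1.96e-08, limma). Pik3cb fell from 16.8 ± 0.157 to 9.03 ± 0.22, and Inpp5d, the lipid phosphatase SHIP1, rose from 38.5 ± 0.196 to 54.2 ± 2.69. Pik3c3, the kinase that makes the lipid bound by p40phox, was named after its values were seen. It stood at 9.92 ± 0.411 and 9.97 ± 0.0821 RPKM (log2 change 0.0072, 95% interval -0.10 to 0.11, adjusted p = 0.902). With median-of-ratios scaling 4 genes of the list were higher and 2 lower, beside 30.2% and 29.8% of all tested genes. Pik3c3 was then among the higher ones (log2 change 0.14, adjusted p = 0.0248).

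Among transcription factors known to act on oxidase genes, 3 of the 8 tested genes reported here were higher, 4 lower and 1 not passed, and their median was -0.096. The share that was lower lies near the 46.0% of all tested genes, of which 18.8% were higher. With median-of-ratios scaling the counts were 4 higher and 3 lower, beside 30.2% and 29.8% of all. Cebpb, a factor of myeloid cells, rose from 50.9 ± 2.49 to 90.8 ± 7.54 RPKM (log2 change 0.82, adjusted p = 4.69e-06, limma). Runx1 fell from 14.4 ± 0.295 to 7.51 ± 0.0844, and Irf1, which binds interferon response elements, from 12.7 ± 0.316 to 6.83 ± 0.140. Spi1 (listed as Sfpi1), which encodes PU.1, and Irf8 were named after their values were seen. Spi1 went from 115 ± 2.31 to 97.7 ± 7.49 (log2 change -0.24, adjusted p = 0.00616), a call lost with median-of-ratios scaling (adjusted p = 0.222). Irf8, a partner of PU.1 at oxidase promoters, was at 21.5 ± 0.367 and 22.2 ± 1.70 (adjusted p = 0.511) and passed as higher with that scaling (adjusted p = 0.0206).

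**Figure D4:**
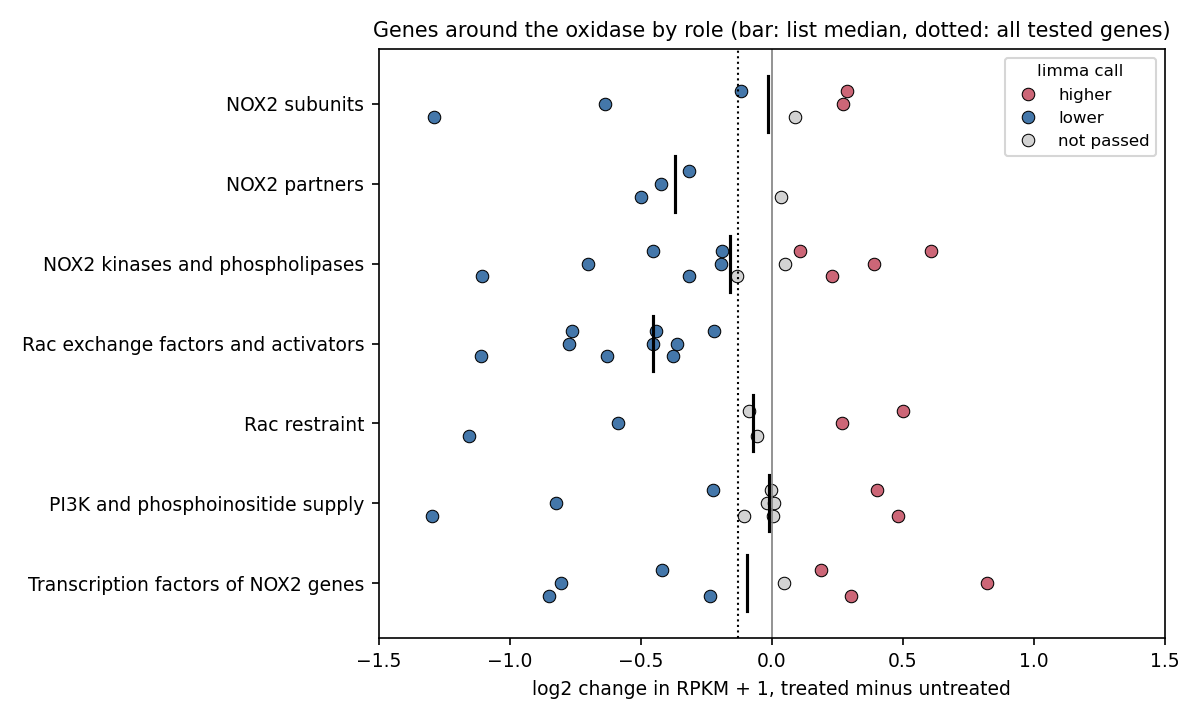
Log2 change in RPKM + 1 of each tested gene reported here in 7 lists around the oxidase, red where limma called it higher, blue lower and grey not passed, with a bar for the list median and a dotted line for all tested genes at -0.13. Points are shifted up and down only to keep them apart. The exchange factors all lie below 0, Tiam1 by way of the filter, and the other lists have genes on both sides.

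The genes most like each member in pattern were found by the root mean square difference of log2(RPKM + 1) over the 6 libraries, after each gene was centred on its mean. For Cybb they were Atl3 (0.0214), Nucks1 (0.0221) and Zfp238 (0.0265), and for Ncf4 they included Src (0.0340) and Tor3a (0.0344). Src was at 3.16 ± 0.0427 RPKM in untreated and 0.755 ± 0.124 in treated libraries. It passed the filter only through the untreated group, so its direction was fixed by the filter. The added 1 also makes its change smaller, so the likeness to Ncf4 holds on that scale only. For Cyba they were Dbnl (0.0167), Ccdc101 (0.0172) and Cebpa (0.0173), and for Ncf1 they were Fuca2 (0.0124), Ormdl2 (0.0143) and Chst12 (0.0146). Rac2 was closest to Emr1 (0.0130), which encodes the macrophage surface protein F4/80, followed by Med24 and Pcif1. Hvcn1 was closest to Edc3, Tmem192 and Slc29a3, at 0.0134 to 0.0145. No member was among the 3 nearest genes of another, and the closest pair of members was Cyba and Ncf1, at 0.0455.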

How the data were processed

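RNA of 3 untreated and 3 treated macrophage cultures was compared. The authors deposited RPKM per gene and library, per the file headers, annotated on mouse GRCm38 (mm10), per the submitters' processing notes. Aligner, counting program and use of strand are not given in the sources used here. Value columns named Ctrl or AT with a number were matched to the untreated or apoptotic thymocyte sample of that number. Depth and reads were recovered by finding the library sizes and gene lengths that make reads whole (tolerance 0.01 reads with GENCODE lengths, 0.02 with searched lengths). PCR duplicates cannot be recognised, so counting errors cover counting only.

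A gene was tested if 3 or more libraries reached 1 RPKM. Log2(RPKM + 1) was fitted by limma 3.58.1 in R 4.3.3, group being the sole term and the prior variance following mean intensity, and p was adjusted over all 10173 tested genes by the Benjamini-Hochberg method. Tables were handled in Python 3.11.15. Positive log2 changes mean higher in treated libraries. The added 1 makes them too small for low genes, and folds are ratios of mean RPKM. The fit was tested on simulated reads that had the same spread in both groups, unlike the data. It recovered 82% of 50 changes of 1.25-fold and 100% of those of 1.5-fold, 2-fold and 4-fold. Of 10148 genes tested there, 21 unchanged ones were called. Members and lists were chosen with earlier results of these data known. Some genes are not reported here, and the list counts leave them out. Genes named besides the members are the partners, up to 3 genes with the smallest p of each other list, up to 3 markers with the highest treated mean, and the 3 genes most like each member. Older symbols were matched through Ensembl identifiers. Alternatives covered the pseudocount, filter, scaling, intensity trend, replicate block and leaving out each library.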

Additional observations from a re-analysis of the deposited data

How the results depend on the processing

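Cybb, Cyba, Ncf1 and Ncf4 kept their direction and their call under all 14 alternatives: pseudocounts of 0.1 and 5, no filter, a filter at 5 RPKM, both rescalings, no intensity trend, the replicate block and each library left out. Rac2 and Hvcn1 did not. The log2 change of Rac2 was 0.030 with median-of-ratios and 0.055 with upper-quartile scaling, -0.12 with no intensity trend (adjusted p = 0.0622), and -0.15 to -0.088 with 1 library left out. That of Hvcn1 was 0.23 and 0.26 with the rescalings, where it passed, and 0.044 to 0.12 with 1 library left out. Both rescalings raise treated against untreated libraries, and over all tested genes 3064 were then higher and 3025 lower (median-of-ratios), or 3280 and 2814 (upper-quartile), against 1915 and 4679.

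No pairing of libraries by replicate number was seen, though 3 libraries a group are too few to exclude it. The deviations of same-numbered libraries from their group means correlated at 0.20, -0.031 and -0.16 across genes. With the replicate block 2 members were higher and 3 lower as before, and 1904 and 4627 of all tested genes. Among the listed genes Prkcd alone lost its call (adjusted p = 0.0507).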

Other observations

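Ncf4 and Rac2 lie on the same stretch of chromosome 15, 296588 bases apart, with 12 genes of the table between them, of which 6 were tested. The 2 next to Ncf4 encode beta chains of receptors for GM-CSF and interleukin 3, and were named after their values were seen. Csf2rb2 fell from 117 ± 2.52 to 48.8 ± 0.795 RPKM (log2 change -1.25) and Csf2rb from 77.2 ± 2.32 to 45.4 ± 2.0 (log2 change -0.75). How reads matching both of these genes were treated is not given in the sources used here. The next tested genes, Tst, Mpst and Kctd17, rose, with log2 changes of 0.83, 0.34 and 0.21, and C1qtnf6 did not pass. This makes 2 of the 6 lower and 3 higher, where 46.0% of all tested genes were lower and 18.8% higher. Tested genes of the interval thus went both ways, and whether position had a part in any change was not tested.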
